A study of Mus musculus with 15 samples.

Results

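The transcripts of 9 genes of muscle protein and organelle breakdown were followed in the left ventricle of mice carrying substitutions in Rbm20. RBM20 binds RNA in the nuclei of muscle cells and controls how titin and further sarcomere and calcium-handling transcripts are spliced. The genes were taken by symbol from 40174 symbols in the deposited count tables. They comprise the ubiquitin ligase genes Fbxo32, Trim63, Trim54 and Trim55, the FoxO transcription factor genes Foxo1 and Foxo3, the autophagy receptor gene Sqstm1 and the mitophagy receptor genes Bnip3 and Bnip3l. All 9 were among the 17588 genes with enough counts to be tested, so none was lost to the filter on low values. The series asks by which mechanisms 2 Rbm20 mutations act in cardiac remodelling.

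The mice were C57BL/6 and 2 months old, and the mutations were S639G, called the G-line here, and S637A, called the A-line. Wild-type (WT), heterozygous (HET) and homozygous (HOM) genotypes gave 5 groups, each labelled as 3 libraries. The labels do not say that replicates were separate animals, so the p-values measure the spread between libraries, which may be technical. For replicates 2 and 3, the A-line HOM and WT columns were identical in 40174 of 40174 symbols, while any other pair of columns shared at most 17686 equal values. Each identical pair was used once, as WT. Which of the labels is right cannot be settled from the deposited files. This left 13 libraries. A-line HOM is a single library, and each other group has 3. Every comparison with WT rests on that choice. Values from the fit without the shared pair, which keeps WT replicate 1 as the lone WT library, are given beside most of the members' results. They are also given for each list in G-line HOM against WT.

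Muscle breaks down its proteins along a pair of routes. In the first, ubiquitin ligases mark proteins for the proteasome, and in the second, autophagosomes carry proteins and organelles to the lysosome. Insulin and IGF1 signalling through AKT keeps FoxO factors out of the nucleus, and in wasting skeletal muscle nuclear FoxO raises Fbxo32, Trim63 and autophagy genes. In the heart, the TRIM ligases sit on the sarcomere, where MuRF1, the product of Trim63, binds titin near the M-band, and mitophagy removes damaged mitochondria from a tissue that depends on them.

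Promoter sequences are shown for the members that rose in G-line HOM hearts and for Bnip3, whose level differed most between the heterozygous lines. RefSeq (mouse build GRCm38.p6) gave the 250 bases before and the first 50 bases of 6 of the 9 members. Fbxo32, Trim55 and Bnip3l had no entry. Capitals mark matches to 4 motifs, each searched on both strands. These were the FoxO core GTAAACA, the hypoxia response core ACGTG, the E-box CACGTG that TFEB and other factors bind, and the antioxidant response element of NRF2, TGACNNNGC.
Trim63, chr4:134314870-134315169, plus strand: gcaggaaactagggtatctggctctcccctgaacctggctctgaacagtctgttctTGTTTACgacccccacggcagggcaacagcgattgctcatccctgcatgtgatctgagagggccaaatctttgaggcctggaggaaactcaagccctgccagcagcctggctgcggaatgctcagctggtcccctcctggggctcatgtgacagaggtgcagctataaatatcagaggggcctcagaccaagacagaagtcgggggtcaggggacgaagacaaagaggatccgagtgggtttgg
Bnip3, chr7:138909457-138909756, minus strand: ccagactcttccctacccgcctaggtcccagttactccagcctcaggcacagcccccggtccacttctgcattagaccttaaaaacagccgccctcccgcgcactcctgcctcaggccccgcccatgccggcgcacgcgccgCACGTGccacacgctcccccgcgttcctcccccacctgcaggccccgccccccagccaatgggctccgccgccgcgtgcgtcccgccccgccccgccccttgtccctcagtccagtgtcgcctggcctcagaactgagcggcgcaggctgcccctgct
Sqstm1, chr11:50210771-50211070, minus strand: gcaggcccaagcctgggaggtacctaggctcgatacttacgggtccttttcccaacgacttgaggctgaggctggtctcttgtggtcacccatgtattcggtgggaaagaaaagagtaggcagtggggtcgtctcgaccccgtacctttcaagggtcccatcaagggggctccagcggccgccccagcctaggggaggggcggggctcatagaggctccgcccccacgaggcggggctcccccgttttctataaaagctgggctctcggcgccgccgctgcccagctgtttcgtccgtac

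The Trim63 window held 1 match to the FoxO core, on the strand opposite to the printed one, that begins 194 bases before the start. That core occurs in 3.65% of 32851 promoter windows of the same length. The Bnip3 window held the E-box 108 bases before the start, and this palindrome also contains ACGTG on each strand. The E-box is found in 7.15% of windows and ACGTG in 19.6%. The Sqstm1 window held none of the 4 motifs, where 12.4% of windows match the NRF2 element. No match was found in the Foxo1, Foxo3 and Trim54 windows either. A match is a run of letters and not a bound site.

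Libraries held 12959087 to 29436407 counts, with A-line HET and A-line HOM at the low end. Levels are given in CPM, edgeR's normalised read count, which corrects for library size with TMM factors. Summed cardiomyocyte markers (8 of 8 with counts in every group) reached 51605 to 56969 CPM in WT and 40752 to 44157 CPM in G-line HOM, and summed fibroblast markers 950.0 to 1649 CPM and 2169 to 3045 CPM. Endothelial markers summed to 1245 to 1375 CPM in WT and at most 1170 CPM in any mutant library, and smooth muscle and pericyte markers to 1655 to 1727 CPM in WT and at most 1347 CPM in any mutant library. The share of counts from mitochondrial ribosomal RNA was 20.2% to 23.4% in WT, lay between 10.8% and 13.5% for G-line HOM, and ran from 13.2% up to 17.1% for the other mutant groups. Myl7, an atrial myosin light chain gene, reached 524 CPM in WT replicate 2. It was also raised in replicate 1 of G-line HOM (45.7 CPM) and replicate 3 of A-line HET (239.9 CPM), with no other library above 3.43 CPM. Arntl, a core clock gene, was high in G-line HOM replicate 1 (24.6 CPM) as well as in replicate 2 of A-line HET (29.0 CPM), with no other library above 5.27 CPM. Atf3 stood at 115 CPM in the single A-line HOM library, with no other library above 23.2 CPM. Fits were run without the libraries raised in Myl7 or Arntl and without the mitochondrial ribosomal RNA. Beyond these fits, the part of these differences in the results below was not tested.

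In G-line HOM against WT, Sqstm1 and Trim63 rose and Fbxo32 and Foxo3 fell, so 4 of 9 members passed an adjusted p of 0.05 in edgeR's quasi-likelihood test. In that comparison 26.4% of all tested genes passed, 13.1% higher and 13.3% lower. The median log2 fold change of the 9 members was 0.04, beside 0.01 over all genes. In 3 members the libraries of the groups did not overlap, as in 41.7% of all genes. Once the shared pair was left out, only Sqstm1 passed.

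Fewer members passed in the other comparisons. In A-line HET against WT only Sqstm1 rose and none fell, where 7.96% of all genes passed, 3.99% higher and 3.97% lower. The libraries did not overlap in 6 members (2 higher, 4 lower), beside 26.1% of all genes. In A-line HOM against WT Sqstm1 alone was called, higher, where 4.68% of all genes passed, 2.82% higher and 1.86% lower. The single A-line HOM library lay outside the WT range in 7 members, beside 67.8% of all genes. In G-line HOM against G-line HET again only Sqstm1 rose, where 14.6% of genes passed, 6.22% higher and 8.42% lower, and 5 members did not overlap, beside 35% of all genes.

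In G-line HET against WT no member passed edgeR's test, while 2 of 9 had an unadjusted p under 0.05 and 1 passed DESeq2, beside 22.3% and 10.5% of all genes. Of all genes 7.51% passed edgeR there, 3.97% higher and 3.54% lower, and 31.5% did not overlap, as did 4 members. In A-line HET against G-line HET no member passed edgeR's test, 1 had an unadjusted p under 0.05 and 1 passed DESeq2, beside 13.3% and 1.43% of all genes. Of all genes 0.0284% passed edgeR in that comparison, 0.0114% higher and 0.0171% lower, and 17.4% did not overlap, as did 4 members. The comparisons with WT share the WT libraries and are not independent of each other.

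**Figure D1:**
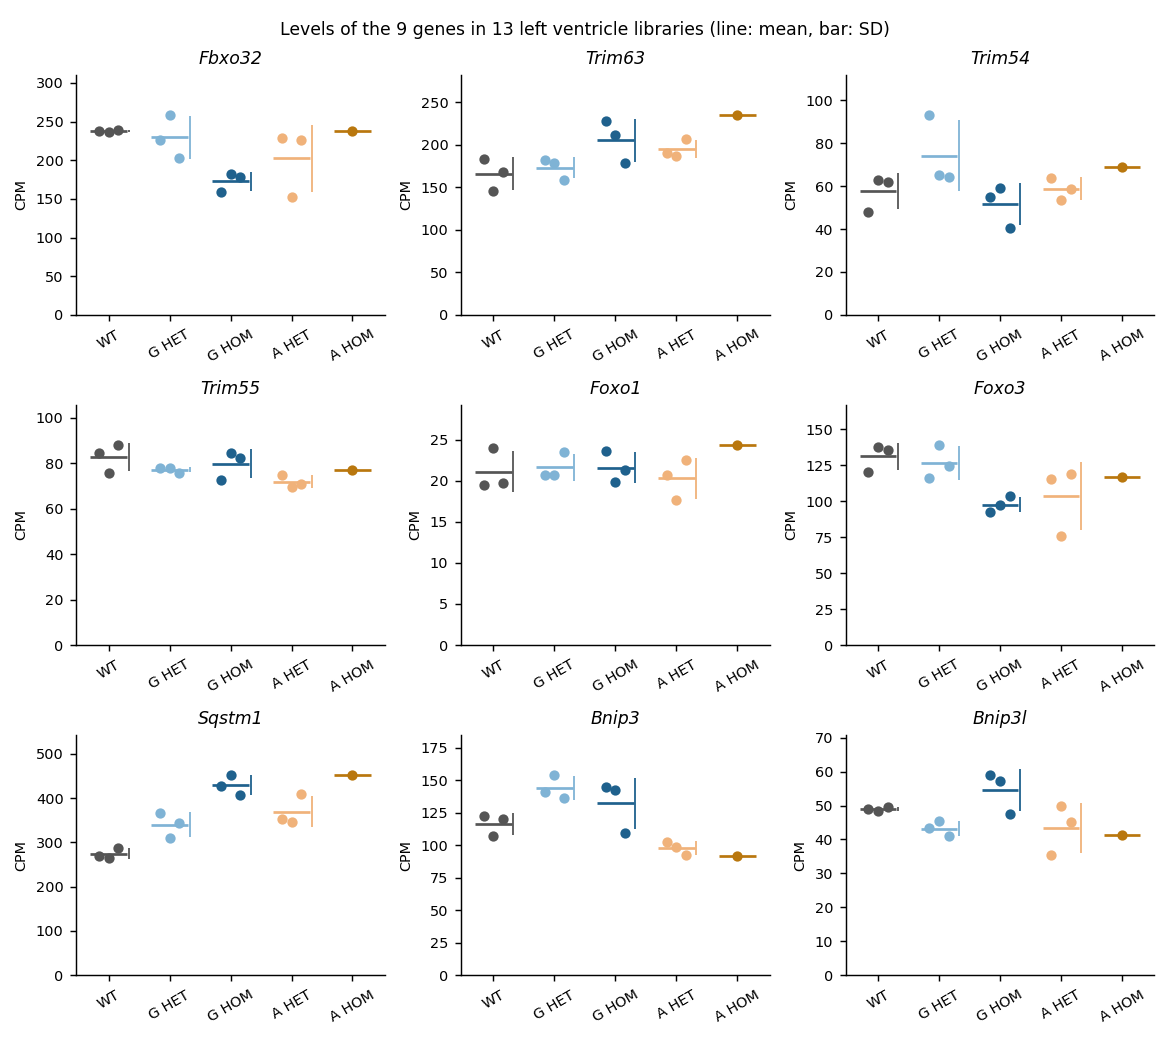
Level in CPM (vertical axes, from 0) of each of the 9 genes in the 13 libraries, by group (horizontal axes). Points are libraries, lines are group means and vertical bars are SDs, with none for the single A-line HOM library. Sqstm1 lies above the WT libraries in every mutant library, and Fbxo32 and Foxo3 are below WT in all 3 G-line HOM libraries.

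Per kilobase of the longest protein-coding transcript in the GENCODE M21 annotation, the members covered a wide range in WT. Sqstm1 stood highest at 102.7 ± 4.53 CPM per kb (SD, n = 3), followed by Trim63 at 88.0 ± 10.3 and Bnip3 at 66.3 ± 4.74. Trim54, Fbxo32 and Trim55 lay between 31.9 and 40.2 CPM per kb. Foxo3 at 19.2 ± 1.37 CPM per kb stood well above Foxo1 at 2.43 ± 0.289, and Bnip3 well above Bnip3l. Trim63 was thus the most abundant of the 4 ligase transcripts and Foxo3 the more abundant of the FoxO transcripts.

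Fbxo32 encodes atrogin-1, the F-box subunit of a muscle ubiquitin ligase complex that in the heart targets calcineurin. Its level was 237, 237 and 239.5 CPM in the WT libraries and 159, 182 and 178 CPM in G-line HOM replicates 1 to 3. All 3 G-line HOM libraries lay below all WT libraries, and the WT libraries nearly coincided. Fbxo32 fell to 0.727 times the WT level (log2 fold change −0.46 ± 0.14 SE, edgeR adjusted p = 0.0213). With the shared pair left out the log2 fold change was also −0.46, with an edgeR adjusted p of 0.169. Leaving out WT replicate 1 gave an edgeR adjusted p of 0.0556, WT replicate 3 gave 0.0617 and G-line HOM replicate 1 gave 0.0770. In bulk tissue, fewer cells of a type and less RNA per cell cannot be told apart, and the cardiomyocyte markers were also lower in these libraries.

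In the other genotypes Fbxo32 showed no called change. G-line HET libraries held 226, 259 and 203 CPM and spread around the WT level. A-line HET libraries held 229, 152 and 226 CPM, and the low library was replicate 2, which has the shifted clock gene. The single A-line HOM library, at 238 CPM, lay within the WT range. G-line HOM libraries were all below G-line HET libraries as well (log2 fold change −0.41 ± 0.14 SE, edgeR adjusted p = 0.0574, DESeq2 adjusted p = 0.0304). With the shared pair left out, the log2 fold changes of Fbxo32 against WT were −0.05 in G-line HET and −0.23 in A-line HET, as with it. By group mean the order was A-line HOM, WT, G-line HET, A-line HET and G-line HOM, and each neighbouring pair in it overlapped.

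Trim63 encodes MuRF1, the RING ligase that binds the titin M-band region and marks myosin heavy chain and troponin I for the proteasome. The gene stood at 184, 145 and 169 CPM in WT and at 228, 211 and 178 CPM in G-line HOM. G-line HOM replicate 3 lay inside the WT range, so the groups overlapped. Trim63 rose 1.24-fold (log2 fold change 0.31 ± 0.11 SE, edgeR adjusted p = 0.0491), a call close to the threshold. Leaving out the shared pair gave a log2 fold change of 0.16 (edgeR adjusted p = 0.552), without WT replicate 2 it was 0.22 (edgeR adjusted p = 0.186) and without G-line HOM replicate 1 it was 0.23 (edgeR adjusted p = 0.166). Both of these libraries carry atrial transcripts, and leaving out either WT replicate 3 (edgeR adjusted p = 0.106) or G-line HOM replicate 2 (0.130) also ended the call.

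The A-line libraries held more Trim63 than the WT libraries in each case, without passing the test. Replicates of A-line HET stood at 191, 187 and 207 CPM, all above WT (log2 fold change 0.23 ± 0.11 SE, edgeR adjusted p = 0.229). That difference was 0.083 without the shared pair, 0.10 without the libraries with atrial transcripts and 0.15 without WT replicate 2. The A-line HOM library, at 236 CPM, was the highest of all 13 (log2 fold change 0.51 ± 0.15 SE, edgeR adjusted p = 0.0716, DESeq2 adjusted p = 0.0313). Its SE takes the spread from the other groups. With the shared pair left out the A-line HOM difference was 0.35, and with the pair counted as A-line HOM it was −0.01. G-line HET libraries, at 182, 178 and 159 CPM, overlapped WT. By group mean the order was A-line HOM, G-line HOM, A-line HET, G-line HET and WT, with overlap between G-line HOM and A-line HET and between G-line HET and WT.

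Trim54 encodes MuRF3, a TRIM ligase that binds microtubules and sarcomeric proteins. It was measured at 47.9, 63.1 and 62.0 CPM in WT, 54.8, 59.2 and 40.5 CPM in G-line HOM and 93.4, 65.3 and 64.1 CPM in G-line HET. The G-line HET libraries lay above both other groups, with replicate 1 far above the rest. Against WT the log2 fold change was 0.37 ± 0.17 SE (edgeR adjusted p = 0.231), and 0.63 without the shared pair. Skeletal muscle markers summed to 452 to 769 CPM in G-line HET (8 of 8 with counts) and 119 to 334 CPM in WT (6 of 8, with Myh4 and Mylpf at 0). They summed to 239 to 760 CPM in G-line HOM, 256 to 278 CPM in A-line HET and 355 CPM in A-line HOM. Only 3 of the 8 markers had enough counts to be tested. Against WT, 2 of these 3 were called higher in A-line HET, and 1 was called higher for each G-line genotype. The part of these markers in the Trim54 levels was not tested. Against G-line HET, the G-line HOM level was lower by a log2 fold change of −0.53 ± 0.17 SE (edgeR adjusted p = 0.0565, DESeq2 adjusted p = 0.0194), and −0.33 without G-line HET replicate 1. A-line HET libraries, at 53.4 to 64.0 CPM, overlapped WT, and the A-line HOM library held 69.1 CPM. Against WT the log2 fold changes of Trim54 were 0.03 in A-line HET and 0.26 in A-line HOM. Without the shared pair they were 0.29 and 0.52. The order by mean was G-line HET, A-line HOM, A-line HET, WT and G-line HOM, and only A-line HOM and A-line HET were neighbours without overlap.

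Trim55 encodes MuRF2, the third member of the MuRF family. It varied least among the ligases, from 69.6 to 88.2 CPM over the 13 libraries. G-line HOM libraries spanned 72.5 to 84.5 CPM and WT libraries 75.8 to 88.2 CPM, and the groups overlapped. A-line HET libraries, at 69.6 to 75.0 CPM, were all just below WT (log2 fold change −0.20 ± 0.08 SE, edgeR adjusted p = 0.172, and −0.23 without the shared pair). The order by mean was WT, G-line HOM, A-line HOM, G-line HET and A-line HET, and only the last pair of neighbours did not overlap. Within a library the log2 count ratio of Trim63 to Trim55, which needs no scaling, was 0.999 ± 0.109 in WT and 1.36 ± 0.272 in G-line HOM (SD, n = 3 each). This difference of 0.36 had an exact two-sided permutation p of 0.2, where 3 against 3 libraries can give no p below 0.1. The ratio was 1.35 to 1.54 in A-line HET and 1.61 in A-line HOM, above the WT range of 0.94 to 1.12.

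Foxo3 encodes a forkhead factor that drives atrophy and autophagy genes when AKT activity is low. The WT libraries held 121, 138 and 135 CPM of Foxo3 and the G-line HOM libraries 92.5, 97.1 and 103 CPM. The groups did not overlap, and all 3 G-line HOM libraries were low. Foxo3 fell to 0.744 times WT (log2 fold change −0.43 ± 0.14 SE, edgeR adjusted p = 0.0352). The fit without the shared pair gave a log2 fold change of −0.31 (edgeR adjusted p = 0.371). Leaving out WT replicate 2 gave an edgeR adjusted p of 0.0921, WT replicate 3 gave 0.101, G-line HOM replicate 1 gave 0.106 and G-line HOM replicate 2 gave 0.0929.

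A-line HET libraries held 116, 76.1 and 119 CPM of Foxo3, all below WT but with replicate 2, the library with the shifted clock gene, far below the others (log2 fold change −0.34 ± 0.14 SE, edgeR adjusted p = 0.163). The difference was −0.22 without the shared pair and −0.17 without the libraries with shifted clock genes. Without replicate 2 the range of this group would be 116 to 119 CPM. The A-line HOM library stood at 117 CPM, and G-line HET libraries, at 116 to 139 CPM, spread over the WT range. G-line HOM was also below every G-line HET library (log2 fold change −0.37 ± 0.14 SE, edgeR adjusted p = 0.0845). From high to low the group means ran WT, G-line HET, A-line HOM, A-line HET and G-line HOM, with overlap between all neighbours.

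Foxo1, the other FoxO factor, was measured at 19.5 to 24.0 CPM in WT, 19.9 to 23.6 CPM in G-line HOM, 20.7 to 23.5 CPM in G-line HET, 17.6 to 22.6 CPM in A-line HET and 24.4 CPM in A-line HOM. The groups with 3 libraries all overlapped, the A-line HOM library lay above every other library, and in G-line HOM against WT the log2 fold change was 0.04 ± 0.12 SE (edgeR adjusted p = 0.861), and 0.14 without the shared pair. Within a library the log2 count ratio of Foxo1 to Foxo3 was −2.64 ± 0.128 in WT and −2.18 ± 0.182 in G-line HOM (SD, n = 3 each). All 3 G-line HOM ratios were above all WT ratios, a difference of 0.46 with an exact two-sided permutation p of 0.1, the smallest that 3 against 3 allows. The ratio was −2.75 to −2.40 in G-line HET, −2.48 to −2.11 in A-line HET and −2.26 in A-line HOM.

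**Figure D2:**
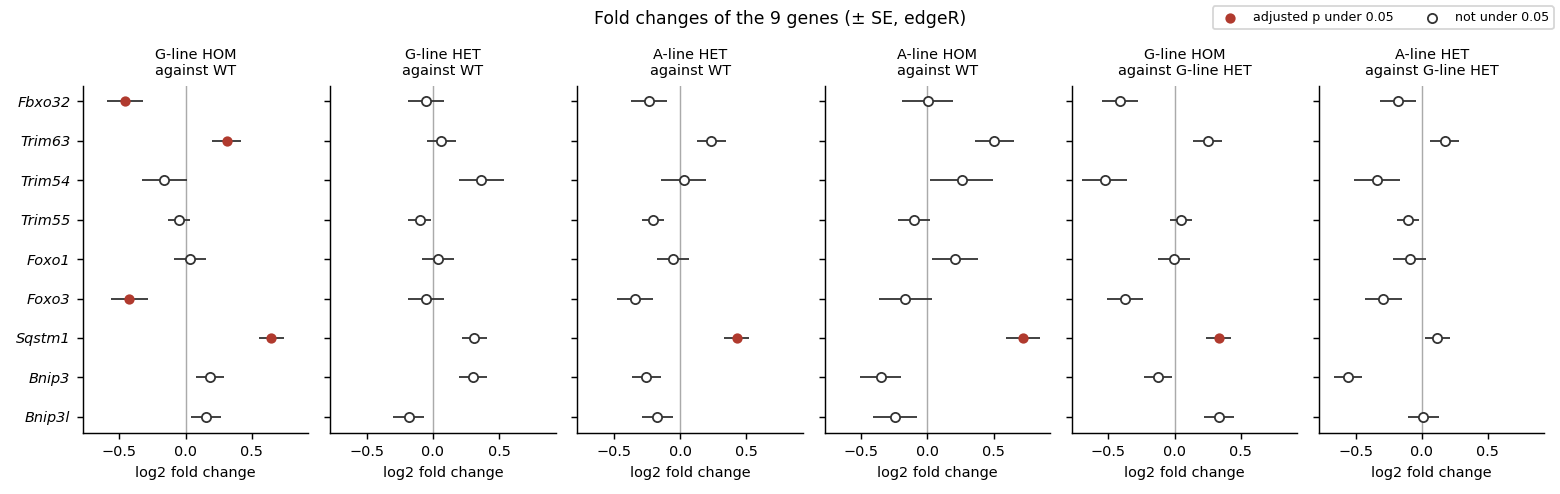
Log2 fold change ± SE (horizontal axes) of the 9 genes (vertical axis) in the 6 comparisons, from edgeR's fit over 13 libraries. Filled points have an adjusted p under 0.05. Sqstm1 is filled in 4 panels, and Fbxo32, Trim63 and Foxo3 only in G-line HOM against WT.

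Sqstm1 encodes p62, the receptor that binds ubiquitinated cargo and the ATG8 proteins of the autophagosome. p62 is itself consumed by autophagy, and it holds KEAP1 away from NRF2. The WT libraries held 269.9, 265 and 288 CPM of Sqstm1, and the G-line HOM libraries 428, 452 and 408 CPM. The groups lay far apart, with no G-line HOM library near the WT range. Sqstm1 rose 1.56-fold (log2 fold change 0.65 ± 0.09 SE, edgeR adjusted p = 0.000226). Without the shared pair it rose by 0.67 (edgeR adjusted p = 0.0162), and it passed in 6 of 6 fits that left out 1 library, with log2 fold changes of 0.61 to 0.68. With the pair counted as A-line HOM the value was 0.67 with an edgeR adjusted p of 0.108.

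Every other mutant library was above WT too. A-line HET held 354, 346 and 409 CPM of Sqstm1 and rose 1.35-fold over WT (log2 fold change 0.43 ± 0.09 SE, edgeR adjusted p = 0.0127). That call was lost without the shared pair (0.45, edgeR adjusted p = 0.175), without WT replicate 1 (edgeR adjusted p = 0.0571) and without A-line HET replicate 3 (0.0666), the library with Myl7. G-line HET held 367, 311 and 343 CPM, with no overlap with WT (log2 fold change 0.31 ± 0.09 SE, edgeR adjusted p = 0.0607, DESeq2 adjusted p = 0.0149). Its difference without the shared pair was 0.33 (edgeR adjusted p = 0.297).

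The A-line HOM library held 452 CPM of Sqstm1, level with the highest G-line HOM library. Against WT it was 1.65-fold higher (log2 fold change 0.72 ± 0.13 SE, edgeR adjusted p = 0.00629), with its spread assumed to be that of the other groups. Without the shared pair the difference was 0.74 (edgeR adjusted p = 0.0898). With the pair counted as A-line HOM it was 0.31, since that group then holds the shared columns that the main fit used as WT.

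Within the G-line, every G-line HOM library was above every G-line HET library and Sqstm1 rose (log2 fold change 0.33 ± 0.09 SE, edgeR adjusted p = 0.0298). The call was lost without G-line HET replicate 2 (edgeR adjusted p = 0.122) or 3 (0.0742), without G-line HOM replicate 1 (0.0564) or 2 (0.111), and with the shared pair left out of the fit (0.0553). A-line HET and G-line HET overlapped, at a log2 difference of 0.12 ± 0.09 SE (edgeR adjusted p = 0.610). By group mean the order was A-line HOM, G-line HOM, A-line HET, G-line HET and WT. The A-line HOM value exceeded the G-line HOM range by less than the spread of that group, G-line HOM overlapped A-line HET, A-line HET overlapped G-line HET, and WT stood apart below.

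Bnip3 encodes an outer mitochondrial membrane protein, induced in hypoxia, that recruits ATG8 proteins to mitochondria. WT libraries held 122, 107 and 120.1 CPM. G-line HET libraries held 141, 154 and 136 CPM, all above WT, and A-line HET libraries held 102, 98.5 and 92.0 CPM, all below WT. The heterozygous lines thus lay on opposite sides of the WT libraries. Against WT neither passed edgeR's test, with log2 fold changes of 0.30 ± 0.11 SE in G-line HET (adjusted p = 0.0994) and −0.25 ± 0.11 SE in A-line HET (adjusted p = 0.176). Without the shared pair they were 0.23 and −0.33 (edgeR adjusted p = 0.529 and 0.344).

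Set against each other, the heterozygous lines differed in Bnip3 by a log2 fold change of −0.56 ± 0.11 SE, A-line lower (edgeR adjusted p = 0.0774, DESeq2 adjusted p = 0.000744). Of 6 fits that left out 1 library 1 called it, and the highest edgeR adjusted p among them was 0.306. WT libraries enter this comparison only through the filter, the scaling, the shared estimate of the spread and the adjustment. Without the shared pair the edgeR adjusted p was 0.162. G-line HOM libraries, at 144, 143 and 109 CPM, overlapped both WT and G-line HET. The A-line HOM library held 91.3 CPM, the lowest of all 13 libraries. By group mean the order was G-line HET, G-line HOM, WT, A-line HET and A-line HOM, with overlap between G-line HET and G-line HOM and between G-line HOM and WT, and none between the rest.

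Bnip3l encodes NIX, the close relative of BNIP3 that clears mitochondria from maturing red cells. It was measured at 49.1, 48.3 and 49.7 CPM in WT and at 59.0, 57.2 and 47.4 CPM in G-line HOM. WT libraries nearly coincided, and G-line HOM replicate 3 lay just below them. G-line HET libraries, at 43.3, 45.3 and 41.0 CPM, were all below WT (log2 fold change −0.18 ± 0.12 SE, edgeR adjusted p = 0.382, and −0.19 without the shared pair). Against them the G-line HOM libraries were all higher (log2 fold change 0.34 ± 0.12 SE, edgeR adjusted p = 0.0632). Of 6 fits that left out 1 library only 1 called it, the one without G-line HOM replicate 3 (0.43, edgeR adjusted p = 0.0232). Over the 6 fits the log2 fold change was 0.28 to 0.43 and the highest edgeR adjusted p was 0.173. A-line HET libraries spread from 35.4 to 49.8 CPM, and the A-line HOM library held 41.5 CPM. The means ran from G-line HOM through WT, A-line HET and G-line HET to A-line HOM, with overlap between all neighbours. Erythroid markers (6 of 6 with counts) summed to 289 to 388 CPM in WT, 412 to 598 CPM in G-line HET and 253 to 1087 CPM in G-line HOM, and their part in the Bnip3l values was not tested.

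Within each library, the mitophagy receptors were set against each other. The log2 count ratio of Bnip3 to Bnip3l was 1.15 to 1.32 in WT, 1.70 to 1.76 in G-line HET and 1.21 to 1.32 in G-line HOM. G-line HET libraries were all above every WT and G-line HOM library in this ratio, which was not tested for that group. The difference of G-line HOM from WT was 0.03, with an exact two-sided permutation p of 0.6. A-line HET libraries ran from 0.98 to 1.53, with replicate 1 high.

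**Figure D3:**
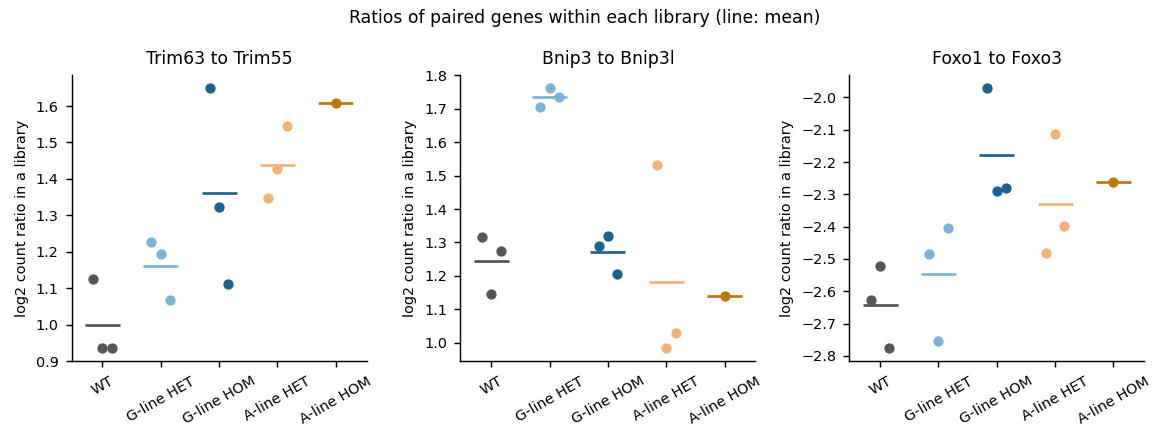
Log2 count ratio within each library (vertical axes, not starting at 0) of Trim63 to Trim55, Bnip3 to Bnip3l and Foxo1 to Foxo3, by group (horizontal axes); points are libraries and lines group means. In Bnip3 to Bnip3l the G-line HET libraries stand above WT, and in Foxo1 to Foxo3 the G-line HOM libraries stand above WT.

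Genes with the most similar course over the 13 libraries were sought for 4 members. Likeness was the root-mean-square difference between 2 genes in log2(CPM + 1) minus its WT mean, among 12377 genes. For Fbxo32 the gene closest of all was Foxo3, at a difference of 0.102, followed by Adgrf5 (0.102) and Ripply3 (0.120). For Sqstm1 they were Myo9b (0.0891), Gabarapl1 (0.101) and Ptpn21 (0.105), of which Gabarapl1 encodes an ATG8-family protein. Arfgap1 (0.0897), Bcor (0.103) and Ttc12 (0.104) lay nearest to Trim63. The nearest to Bnip3 were farther off: Capzb (0.145), Ldha (0.146), the muscle-type subunit of lactate dehydrogenase, and Slc39a1 (0.152). Clock-shifted and atrial libraries are among the 13, and A-line HET replicate 2 was low in both Fbxo32 and Foxo3.

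**Figure D4:**
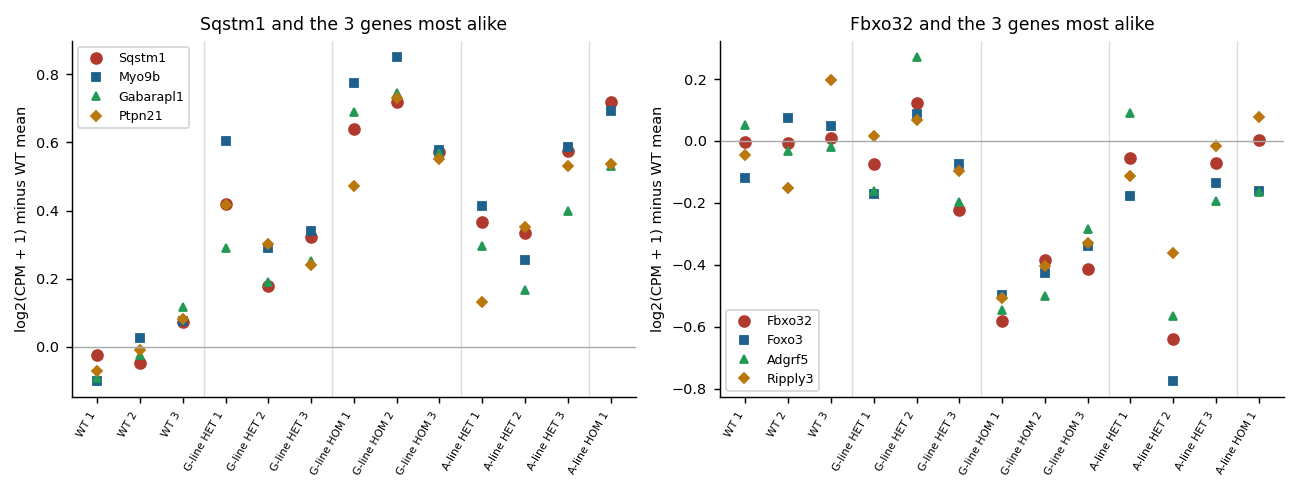
Log2(CPM + 1) minus the WT mean (vertical axes) in the 13 libraries (horizontal axes) for Sqstm1 and for Fbxo32, each with the 3 genes most alike in this measure. Sqstm1 and its companions are above 0 in every mutant library, and Fbxo32 and Foxo3 are lowest in A-line HET replicate 2 and in the G-line HOM libraries.

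The genes around these members were described in G-line HOM against WT, the comparison with the most members called. Each list is read against the 26.4% of all genes that passed and the median log2 fold change of 0.01 over all genes. The naming rule chose up to 4 called genes of each list, 40 in all. Of these, 35 were called in every fit that left out 1 library of the compared groups and 32 without the shared pair. With the pair counted as A-line HOM 14 were.

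Among 29 other muscle ubiquitin ligase and atrophy genes, 3 rose and 6 fell (31% called, median −0.04). The F-box genes moved both ways: Fbxo21, a FoxO-dependent ligase subunit of skeletal muscle, fell from 42.8 ± 1.91 to 21.6 ± 1.48 CPM (SD, n = 3, edgeR adjusted p = 5.25e-05), and Fbxo31 fell from 46.7 ± 4.20 to 26.9 ± 1.64 CPM (edgeR adjusted p = 0.000552). Fbxo30, a ligase restrained by BMP signalling, rose from 65.5 ± 3.95 to 93.8 ± 3.57 CPM (edgeR adjusted p = 0.00042). Tnfrsf12a, the TWEAK receptor, rose from 11.8 ± 0.518 to 69.1 ± 14.6 CPM (edgeR adjusted p = 0.00111). Leaving out the shared pair left 2 higher and 3 lower calls.

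Among 22 insulin, AKT and FoxO regulators, 7 rose and 2 fell (40.9%, median 0.13). Irs1, an insulin receptor substrate, rose from 63.7 ± 5.88 to 153 ± 25.5 CPM (edgeR adjusted p = 0.000411), Igf1r, the IGF1 receptor, from 36.5 ± 1.55 to 61.3 ± 9.79 CPM (edgeR adjusted p = 0.000451) and its ligand Igf1 from 21.2 ± 5.92 to 45.6 ± 5.99 CPM (edgeR adjusted p = 0.0039). Rptor, the scaffold of mTOR complex 1, fell (log2 fold change −0.33, edgeR adjusted p = 0.00926), a call lost without the shared pair (edgeR adjusted p = 0.231). In that fit the list held 3 higher calls and 0 lower calls.

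Of 20 FoxO target genes, 3 rose and 5 fell (40%, median −0.26). Sod2, the mitochondrial superoxide dismutase, fell from 436 ± 41.3 to 202 ± 38.8 CPM (edgeR adjusted p = 0.00235) and Cat, catalase, from 199 ± 7.84 to 152 ± 12.2 CPM (edgeR adjusted p = 0.00221). Bcl2l11, which encodes the cell death factor BIM, rose from 15.8 ± 2.57 to 36.0 ± 1.38 CPM (edgeR adjusted p = 0.000104), and Eif4ebp1, a translation repressor, rose from 29.1 ± 3.05 to 38.5 ± 1.98 CPM (edgeR adjusted p = 0.0058). With the shared pair left out, 2 were higher and 4 lower.

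Autophagy machinery (33 genes) had 4 called higher and 5 lower (27.3%, median −0.08). Gabarapl1 rose from 58.9 ± 4.46 to 94.1 ± 5.91 CPM (edgeR adjusted p = 0.000104) and Becn1, a subunit of the lipid kinase complex that starts autophagosomes, from 37.5 ± 0.350 to 51.4 ± 1.45 CPM (edgeR adjusted p = 0.000792). Atg2a, a lipid transfer protein, fell from 28.0 ± 1.92 to 14.6 ± 2.47 CPM (edgeR adjusted p = 0.0004) and Atg4d, an ATG8-processing protease, from 27.3 ± 0.739 to 15.8 ± 1.05 CPM (edgeR adjusted p = 0.000441). The fit that left out the shared pair called 2 higher and 3 lower. Of 8 other autophagy receptors, 2 rose: Stbd1, a glycogen-binding receptor, from 8.58 ± 1.92 to 19.4 ± 1.86 CPM (edgeR adjusted p = 0.00713), and Tax1bp1 (log2 fold change 0.27, edgeR adjusted p = 0.0115), whose call was lost without the shared pair (edgeR adjusted p = 0.240) and without WT replicate 3 (0.0558). In the fit without that pair 1 gene of this list was called higher.

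Among 24 mitophagy and mitochondrial dynamics genes other than Bnip3 and Bnip3l, 11 fell in edgeR's test and 0 rose (45.8%, median −0.23). Over both directions 13 had an unadjusted p under 0.05 and DESeq2 called 11, beside 37.2% and 27.7% of all genes, and 6 had a positive log2 fold change. Rhot2, which links mitochondria to motor proteins, fell from 101 ± 6.73 to 50.3 ± 2.98 CPM (edgeR adjusted p = 4.92e-05), Opa1, for inner membrane fusion, fell by 0.70 on the log2 scale (edgeR adjusted p = 0.000739) and Vdac1, an outer membrane channel, from 699 ± 36.2 to 438 ± 51.1 CPM (edgeR adjusted p = 0.00108). Phb2, an inner membrane receptor of mitophagy, fell from 107 ± 8.19 to 72.2 ± 6.51 CPM (edgeR adjusted p = 0.000981). The fit without the shared pair called 7 lower, and 5 were lower with the pair counted as A-line HOM. Cardiomyocyte markers, of which 5 of 8 also fell, and the mitochondrial ribosomal RNA share were lower in the same libraries, and their part in these falls was not tested.

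Lysosome genes (22) split into 4 higher and 5 lower (40.9%, median 0.04). Npc1, a cholesterol exporter, fell from 71.5 ± 2.53 to 30.8 ± 5.25 CPM (edgeR adjusted p = 0.00114) and Psap, the saposin precursor, from 978 ± 92.8 to 686 ± 18.6 CPM (edgeR adjusted p = 0.00157), while the cathepsin gene Ctsz rose from 21.1 ± 4.47 to 36.7 ± 5.78 CPM (edgeR adjusted p = 0.00549). In the fit without the shared pair 2 lysosome genes were called higher and 3 lower. Of 36 proteasome and ubiquitin genes 3 rose and 2 fell (13.9%, median 0.02), among them the regulatory subunit Psmd13, which rose from 50.4 ± 2.79 to 67.0 ± 3.66 CPM (edgeR adjusted p = 0.00267). Psmb2, a core subunit, fell (log2 fold change −0.40, edgeR adjusted p = 0.0108), a call lost without the shared pair (edgeR adjusted p = 0.111) and without G-line HOM replicate 1 (0.0531). The proteasome and ubiquitin list held 2 higher and 0 lower calls without that pair.

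The pathways tied to Sqstm1 and Bnip3 by their known regulators were read next. Of 12 KEAP1 and NRF2 pathway genes 2 rose (16.7%, median 0.22): Srxn1, sulfiredoxin, from 18.6 ± 0.874 to 29.5 ± 7.47 CPM (edgeR adjusted p = 0.00788) and Nqo1 (log2 fold change 0.27, edgeR adjusted p = 0.0497). The Nqo1 call was lost in every fit that left out 1 library of these groups (highest edgeR adjusted p = 0.188), and neither gene was called without the shared pair. Of 18 HIF pathway and hypoxia-induced genes 5 rose and 3 fell (44.4%, median 0.08). Egln1, the oxygen-sensing prolyl hydroxylase, fell from 264 ± 12.4 to 149 ± 11.6 CPM (edgeR adjusted p = 3.76e-05), and the hypoxia-induced P4ha1 and Slc2a1 rose by log2 fold changes of 0.66 and 0.80 (edgeR adjusted p = 0.000608 and 0.0025). Among 10 M-band and titin kinase partners, the neighbours of Trim63, 3 rose and 2 fell (50%, median 0.03), with Myom3, a myomesin, up from 4.54 ± 0.995 to 23.3 ± 8.85 CPM (edgeR adjusted p = 0.000136) and Capn3, a titin-bound protease, down from 4.50 ± 1.30 to 2.02 ± 0.259 CPM (edgeR adjusted p = 0.00234). Leaving out the shared pair gave 3 higher and 2 lower calls in the HIF list and 1 in each direction in the M-band list.

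**Figure D5:**
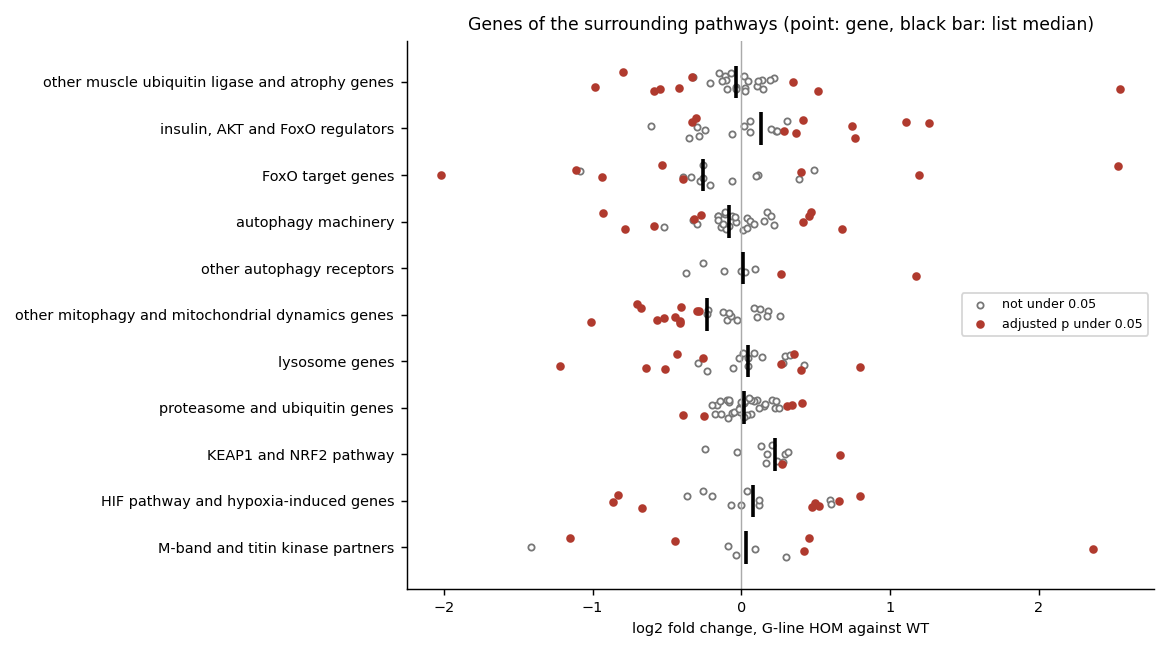
Log2 fold change in G-line HOM against WT (horizontal axis) of every tested gene in 11 lists of surrounding pathways (vertical axis). Points are genes, filled where the edgeR adjusted p is under 0.05, vertical offsets within a list carry no meaning, and black bars are list medians. In the mitophagy and mitochondrial dynamics list all 11 filled points lie below 0.

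In G-line HOM against G-line HET 14.6% of all genes passed, with a median log2 fold change of 0.04. M-band partners had 1 of 10 higher and 6 lower (70%), among them Capn3 (log2 fold change −1.11, edgeR adjusted p = 0.0083) and Obsl1, an obscurin relative (−0.64, edgeR adjusted p = 0.00966). The other ligase genes had 1 of 29 higher and 7 lower, led by Asb2, a ligase subunit that targets filamins (−0.75, edgeR adjusted p = 0.00172). Autophagy machinery had 3 of 33 higher and 7 lower, with Gabarapl1 higher (0.43, edgeR adjusted p = 0.00709) and Map1lc3a, another ATG8-family gene, lower (−0.56, edgeR adjusted p = 0.00467). Mitophagy and dynamics genes had 7 of 24 lower, led by Rhot2 (−1.01, edgeR adjusted p = 0.00106). Pik3r1, the regulatory subunit of PI3 kinase, was 230.0 ± 37.7 CPM in G-line HOM and 484 ± 39.7 CPM in G-line HET (edgeR adjusted p = 0.00188).

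In the heterozygous lines fewer list genes were called, against backgrounds of 7.51% in G-line HET and 7.96% in A-line HET. In G-line HET against WT 4 of 22 insulin and FoxO regulators rose, with Pik3r1 at 484 ± 39.7 CPM against 239.9 ± 17.0 CPM in WT (edgeR adjusted p = 0.00166), and 4 of 10 M-band partners rose, with Obsl1 at 99.8 ± 25.9 against 60.2 ± 4.20 CPM (edgeR adjusted p = 0.00599). Autophagy machinery had no call by edgeR in either line, with an unadjusted p under 0.05 in 6 of 33 genes in G-line HET and 7 in A-line HET and 1 gene called by DESeq2 in each. Over all genes 22.3% and 22% had such an unadjusted p and 10.5% and 10.3% were called by DESeq2, in G-line HET and A-line HET in turn. In A-line HET 4 of 24 mitophagy and dynamics genes fell, among them Opa1 (log2 fold change −0.47, edgeR adjusted p = 0.0288). That Opa1 call was lost without WT replicate 1 or 3, A-line HET replicate 2 or 3, or the shared pair. With the shared pair left out, neither the insulin and FoxO regulator list nor the M-band list had a call by edgeR in G-line HET, nor the mitophagy list in A-line HET, and 2 of 19 named calls in G-line HET and 3 of 20 in A-line HET were still made.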

How the data were processed

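TRIzol and DNase were used to prepare left-ventricle RNA, and libraries were made with a total RNA kit, per the labels' protocols. Reads were handled with bcl2fastq 2.20.0.422, Trimmomatic 0.39 and STAR 2.7.4a on mm39 (GRCm39), per the submitters' processing notes. The deposited tables hold the authors' raw read counts for each symbol. The counting program and annotation, and whether strand was used, are not given in the material used here, so overlapping and antisense genes cannot be told apart from the members. The deposited counts of 15 labelled libraries gave 13 distinct ones after 2 identical pairs were each used once, as WT.

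Genes reaching 0.422 CPM in at least 3 libraries and 15 counts in total were fitted with edgeR 4.0.16 (R 4.3.3) by its robust quasi-likelihood test, with TMM factors, 1 mean per group, 8 residual degrees of freedom and Benjamini-Hochberg adjustment over 17588 genes at 0.05. The fit was tested on simulated counts with a constant spread and changes in G-line HOM larger than any member's. That test does not show how well changes as small as the members' are called. The A-line HOM library is assumed to vary like the other groups. SEs were taken from the fold change and its F statistic. Ratios were tested by exact permutation. Total counts of 12959087 to 29436407 set the depth. Transcript lengths come from GENCODE M21 and promoters from RefSeq GRCm38.p6, both of another build than the counts, so they were joined by symbol and no coordinate was compared with the files.

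The members, the 11 surrounding lists and the tests were chosen with earlier results of these data known. Named genes were the 9 members, up to 4 called genes of each list and comparison with the smallest adjusted p, and the 3 genes most like Fbxo32, Trim63, Sqstm1 and Bnip3. Values of 1 gene that this rule chose are not reported here. Alternatives were DESeq2 1.42.0, RLE size factors, 2 other filters, the compared groups alone, a replicate block, each library left out, the shared pair left out or counted as A-line HOM, and omission of libraries with atrial or shifted clock transcripts or of mitochondrial ribosomal RNA.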

Additional observations from a re-analysis of the deposited data

Results flagged for a closer look

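Among 30 genes looked at for a difference between the heterozygous lines, 2 were flagged. The 30 were the members and list genes picked by their adjusted p in this same comparison. The count of 2 is therefore no measure of how common such differences are. Other genes of the 30 passed DESeq2 without being flagged, among them Pik3r1 (DESeq2 adjusted p = 0.00199) and Rhot2 (0.0376). Bnip3 lay above WT in every G-line HET library (136 to 154 CPM, WT 107 to 122 CPM) and below WT in every A-line HET library (92.0 to 102 CPM). The A-line HET minus G-line HET difference was −0.56 on the log2 scale, with an edgeR adjusted p of 0.0774 and a DESeq2 adjusted p of 0.000744. For Bnip3 the edgeR call was made in 1 of 6 fits that left out 1 library, the one without A-line HET replicate 1 (−0.59, edgeR adjusted p = 0.0183), and the adjusted p was 0.168 to 0.306 in the others.

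Bcl2l11, the gene of the cell death factor BIM, was higher in A-line HET (40.0 to 55.4 CPM) than in G-line HET (19.9 to 28.1 CPM), and both lay above WT (at most 18.7 CPM). The difference was 1.10 on the log2 scale, with an edgeR adjusted p of 0.0365 and a DESeq2 adjusted p of 4.31e-07. For Bcl2l11 the edgeR call was made in 2 of 6 fits that left out 1 library. It was lost without G-line HET replicate 1 (edgeR adjusted p = 0.227) or 3 (0.141), without A-line HET replicate 2 (0.196) or 3 (0.143), without the libraries holding atrial transcripts (0.120) and without those with shifted clock genes (0.153).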

How the results depend on the processing

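The number of members called depended most on the shared WT and A-line HOM libraries. With them left out, 1 member was called in G-line HOM against WT and 0 in A-line HET against WT, A-line HOM against WT and G-line HOM against G-line HET, and the comparisons with WT had 0 when this pair took the A-line HOM label. DESeq2 called 1 member in G-line HET against WT, 2 in A-line HOM against WT, 3 in G-line HOM against G-line HET and 1 in A-line HET against G-line HET. RLE size factors gave 2 in G-line HOM against G-line HET. The fit with no filter gave 2 in A-line HOM against WT and 1 in A-line HET against G-line HET. Fits of the compared groups alone gave 2 in G-line HET against WT and 2 in G-line HOM against G-line HET. In G-line HOM against WT Trim63 lost its call there (edgeR adjusted p = 0.0722). Trim63 also lost it at the 1 CPM filter (edgeR adjusted p = 0.0507) and without the libraries with shifted clock genes (0.173). Fbxo32, Foxo3 and Sqstm1 kept their calls with the compared groups alone, at the 1 CPM filter and without the libraries with shifted clock genes. Without the libraries with atrial transcripts, Fbxo32 (edgeR adjusted p = 0.118) and Foxo3 (0.178) lost theirs in this comparison. Foxo3 also lost its call with the replicate block (edgeR adjusted p = 0.0525). Without the libraries with atrial transcripts 1 was called in G-line HOM against WT and 0 in A-line HET against WT, and without those with shifted clock genes 0 in G-line HOM against G-line HET. Leaving out 1 library gave 1 to 5 in G-line HOM against WT, 0 to 0 in G-line HET against WT, 0 to 1 in A-line HET against WT, 1 to 1 in A-line HOM against WT, 0 to 3 in G-line HOM against G-line HET and 0 to 1 in A-line HET against G-line HET. The cause was not tested.

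In no comparison did all libraries with the same replicate number deviate alike, which does not exclude that they were paired. Over 15 same-numbered pairs the correlation of deviations ran from −0.31 to 0.21, and 4 exceeded 0.1. With the replicate block 2 members were called in G-line HOM against WT, and the other comparisons kept their number. The block turned Fbxo32 in A-line HOM against WT to −0.0074.

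Of 864 alternative fold changes of the members 47 changed sign, none of them of a called result. In A-line HET against G-line HET, Bnip3l was −0.0013 by DESeq2, −0.0025 with RLE factors, −0.026 with no filter, −0.0089 without atrial libraries, −0.10 without clock libraries, −0.0053 without mitochondrial ribosomal RNA and −0.097 to 0.14 with 1 library left out, while Foxo1 was −0.18 to 0.0024 with 1 left out. In A-line HOM against WT, Fbxo32 was −0.0015 at 1 CPM, −7.9e-05 without mitochondrial ribosomal RNA and −0.0011 to 0.0075 with 1 library left out. With the shared pair as A-line HOM, Trim63 was −0.0058 and Foxo3 0.11 there. In G-line HOM against G-line HET, Foxo1 was 0.0051 at 1 CPM, 0.00037 without the shared pair and −0.067 to 0.063 with 1 library left out. In G-line HOM against WT, Trim54 was 0.10 without the shared pair and 0.10 with it as A-line HOM. There Foxo1 was −0.034 and Trim55 0.014 without clock libraries, and with 1 library left out −0.034 to 0.14 and −0.11 to 0.014. In G-line HET against WT, Trim63 was −0.093 without the shared pair, −0.087 with it as A-line HOM, −0.027 without atrial libraries and −0.027 to 0.14 with 1 left out. For Foxo3 the values without the pair, with it as A-line HOM and with 1 left out were 0.066, 0.071 and −0.13 to 0.0066. With 1 left out Foxo1 was −0.027 to 0.14 and Fbxo32 −0.15 to 0.027. In A-line HET against WT, Foxo1 was 0.053 without the shared pair, 0.056 with it as A-line HOM, 0.030 without clock libraries and −0.14 to 0.048 with 1 left out, and Trim54 was −0.091 to 0.095 with 1 left out. The difference in the Bnip3 to Bnip3l ratio between G-line HOM and WT was −0.045 without the shared pair and −0.023 to 0.062 with 1 library left out.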

Other observations

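In the single A-line HOM library, 2 of 20 FoxO target genes and 1 of 22 insulin, AKT and FoxO regulators were called higher than in WT, where 2.82% of all genes were higher and 4.68% were called. Bcl2l11 stood at 59.8 CPM against 15.8 ± 2.57 CPM in WT (SD, n = 3, edgeR adjusted p = 0.000148) and Eif4ebp1 at 51.6 CPM against 29.1 ± 3.05 CPM (edgeR adjusted p = 0.00291). Irs2, an insulin receptor substrate, stood at 51.6 CPM against 9.57 ± 1.12 CPM (edgeR adjusted p = 0.00221). Without the shared pair Bcl2l11 and Eif4ebp1 were still called (edgeR adjusted p = 0.0173 and 0.0209) and Irs2 was not (0.0813). Of 11 called list genes that the naming rule chose in this comparison, 3 were called in that fit and 0 with the pair counted as A-line HOM. The spread of this library is assumed to be that of the other groups. It also held far more Atf3 than any other library (115 CPM), and the part of that difference in these values was not tested.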
